A study of Sus scrofa with 10 samples.

Results

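SMAD1, SMAD4, TCF7L1 and TCF7L2 are transcription factors through which BMP and WNT signals reach the genome. All probe sets that the platform annotation pairs with 1 of these 4 symbols alone were taken, which gave 5 of 24123 probe sets and 4 of the 6765 genes with a symbol. SMAD1 (Entrez gene 397016), SMAD4 (397142) and TCF7L1 (100523899) had 1 probe set each and TCF7L2 (100153922) had 2. The genes were proposed with their difference between the fractions already known, so that difference is described below without a p-value and carries no weight as evidence.

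The RNA came from porcine fetal fibroblasts, grown on gelatin from the tissue of embryos at day 24 with the head left out, of the cross Danish Landrace/Yorkshire x Duroc. Magnetic beads and an antibody to SSEA-1, a carbohydrate (Lewis X) on the surface of several embryonic and stem cell types, were used to divide them into an SSEA1+ and an SSEA1- fraction. Each fraction had 5 arrays, numbered as replicates 1 to 5, and the series text describes the 5 as biological replicates. The series title speaks of a cell line, and neither the purity of the fractions nor the number of embryos is given in the sources used here. The labels name no genetic change and no added agent in either fraction. Values are log2 signals, so 1 unit is a doubling, and the number of arrays limits their precision.

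In the BMP pathway a ligand brings together type I and type II receptors, which phosphorylate SMAD1 and its close relatives. The phosphorylated proteins bind SMAD4, the partner shared with the TGF-beta branch, and enter the nucleus, where the ID genes are classical targets. In the WNT pathway a ligand at Frizzled and LRP receptors stops the breakdown of beta-catenin (CTNNB1), which then binds DNA through the TCF/LEF proteins. TCF7L1 acts mostly as a repressor in embryonic cells, whereas TCF7L2 can repress or activate according to its partners, and both pathways guide mesenchymal cells in the embryo.

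SMAD1, the BMP-activated SMAD, read higher in the SSEA1+ fraction. Its signal was 4.77, 4.68, 4.62, 4.52 and 4.57 in SSEA1+ replicates 1 to 5 and 4.27, 4.37, 4.38, 4.19 and 4.52 in the SSEA1- replicates. The fractions did not overlap, but only narrowly, since the lowest SSEA1+ array read 4.521 and the highest SSEA1- array 4.519. The means were 4.63 ± 0.10 and 4.35 ± 0.12 (SD, n = 5 each), a difference of 0.29 ± 0.08 (SE) or 1.22-fold. Between arrays of the same number the difference ran from 0.05 in replicate 5 to 0.50 in replicate 1.

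SMAD4, the SMAD common to both branches, was the single member that read lower in the SSEA1+ fraction. It gave 6.25, 6.27, 6.33, 6.07 and 6.19 in the SSEA1+ replicates against 6.38, 6.38, 6.38, 6.30 and 6.40 in the SSEA1- replicates. The SSEA1- arrays lay close together, and 4 of the 5 SSEA1+ arrays were below all of them; SSEA1+ replicate 3, at 6.33, was above the lowest. The difference was -0.15 ± 0.07 (SE), from means of 6.22 ± 0.10 and 6.37 ± 0.04 (SD, n = 5 each). It was negative for each of the 5 replicate numbers, from -0.22 to -0.05, and on a linear scale it came to 1.11-fold.

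TCF7L1, the TCF known mainly as a repressor, read 4.24, 4.45, 4.23, 4.49 and 4.26 in the SSEA1+ replicates and 4.16, 4.20, 4.13, 3.89 and 4.13 in the SSEA1- replicates. All 5 SSEA1+ arrays were above all 5 SSEA1- arrays, the closest being 4.23 and 4.20. The difference was 0.23 ± 0.08 (SE), or 1.17-fold, between means of 4.33 ± 0.12 and 4.10 ± 0.12 (SD, n = 5 each). It was uneven over the replicates: 0.59 in replicate 4, and 0.08, 0.25, 0.10 and 0.13 in replicates 1, 2, 3 and 5. Without both arrays of replicate 4 it was 0.14 ± 0.07 (SE).

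TCF7L2 was dim. The background level, the signal of controls whose target the sample lacks, was 0.352. The brighter TCF7L2 probe set gave 1.20, 1.39, 1.29, 0.53 and 1.47 in the SSEA1+ replicates and 0.76, 0.82, 0.63, 0.63 and 0.85 in the SSEA1- replicates. In 4 of the 5 SSEA1+ arrays the signal was above every SSEA1- array, and in SSEA1+ replicate 4 it was below them all. The mean was 1.18 ± 0.37 against 0.74 ± 0.10 (SD, n = 5 each), a difference of 0.44 ± 0.15 (SE) or 1.36-fold. Without SSEA1+ replicate 4 the difference was 0.60 ± 0.08, and without both arrays of that number 0.57 ± 0.08 (SE).

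The second TCF7L2 probe set lay near background and showed no such separation. It gave 0.43, 0.44, 0.63, 0.45 and 0.43 in the SSEA1+ replicates and 0.22, 0.56, 0.50, 0.43 and 0.42 in the SSEA1- replicates, with 9 of 10 arrays above the background level. Its difference was 0.05 ± 0.08 (SE). The 2 probe sets of TCF7L2 therefore gave unequal differences, and the difference between them was not tested.

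**Figure D1:**
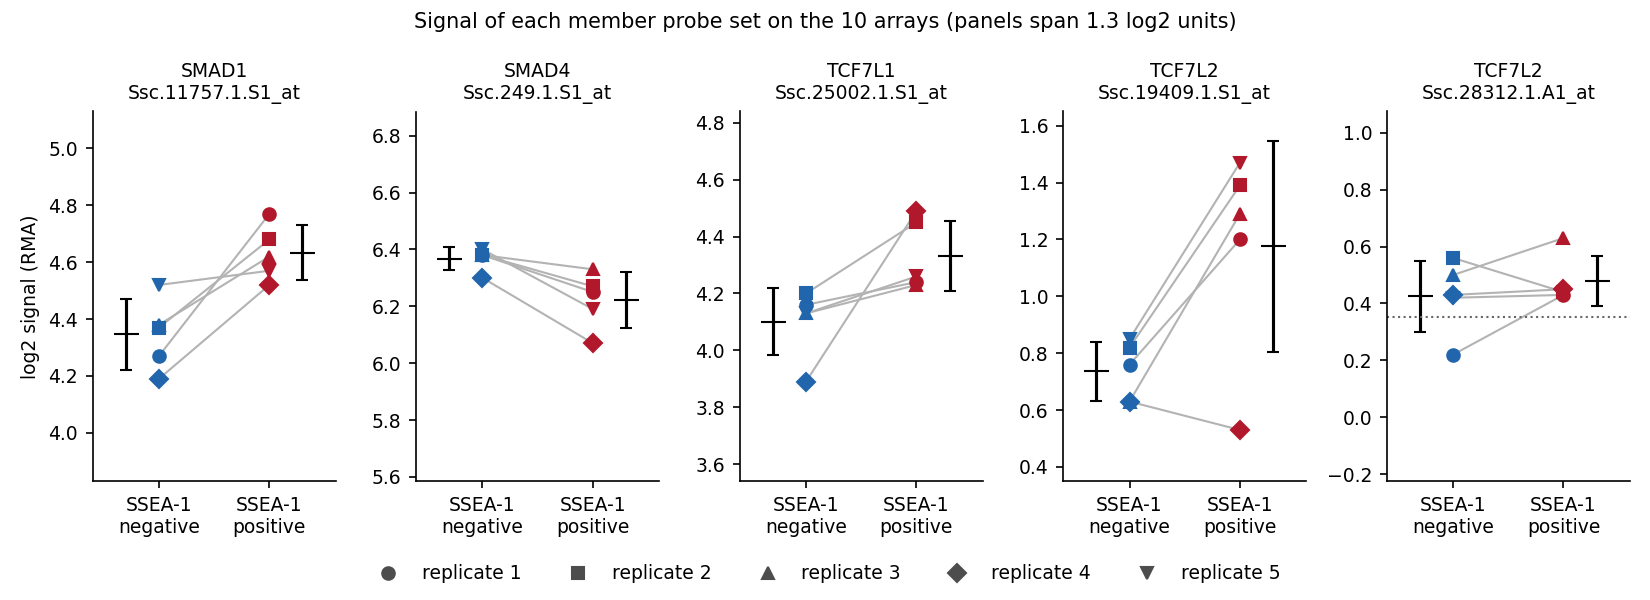
Signal (log2, RMA) of the 5 probe sets on the 10 arrays: each panel sets SSEA-1 negative (blue) beside SSEA-1 positive (red), symbols mark the replicate number, grey lines join equal numbers, and black bars give the mean and SD of 5 arrays. SMAD1 and TCF7L1 separate the fractions, SMAD4 reads lower in SSEA-1 positive, SSEA-1 positive replicate 4 lies apart for the brighter TCF7L2 probe set, and the dotted line in the last panel is the background level of 0.352.

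Across all probe sets, 6.2% passed an adjusted p under 0.05 in limma with Benjamini-Hochberg adjustment, and 1 of the 5 member probe sets, that of SMAD1, was among them. When equal numbers were treated as pairs the share over all probe sets was 11.7%, and 2 of the 5 passed in that blocked fit, SMAD1 and the brighter TCF7L2 probe set. The 2 members whose fractions did not overlap, SMAD1 and TCF7L1, compare with 6.5% of all probe sets. Same-numbered arrays differed in 1 direction in all 5 replicates for 22.5% of probe sets, and for SMAD1, SMAD4 and TCF7L1. These counts describe genes picked for this contrast, so a member past the threshold is no evidence of a difference. At an unadjusted p under 0.05 stood 19.9% of all probe sets. The place of SMAD1 past the threshold was kept in 2 of the 10 fits that left out 1 array, those without SSEA1+ replicate 4 and without SSEA1- replicate 5, and in none of the 5 that left out both arrays of a number, where its difference ran from 0.23 to 0.35.

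Replicate 4 stood at the edge of the range for several members. It was the lowest array of its fraction in both fractions for SMAD1, SMAD4 and the brighter TCF7L2 probe set. For TCF7L1 it was the highest SSEA1+ array and the lowest SSEA1- array. Differences from the fraction means moved together for SMAD4 and the brighter TCF7L2 probe set, at a Pearson correlation of 0.74 over 10 arrays. Without replicate 4 the same value was -0.29 over 8 arrays. For SMAD1 and SMAD4 it was 0.60 with replicate 4 and 0.22 without it, and for TCF7L1 and the brighter TCF7L2 probe set -0.30 and 0.32. These are descriptions of arrays that share 5 replicate numbers, and the relations of SMAD4 with SMAD1 and with the brighter TCF7L2 probe set rested on replicate 4.

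**Figure D2:**
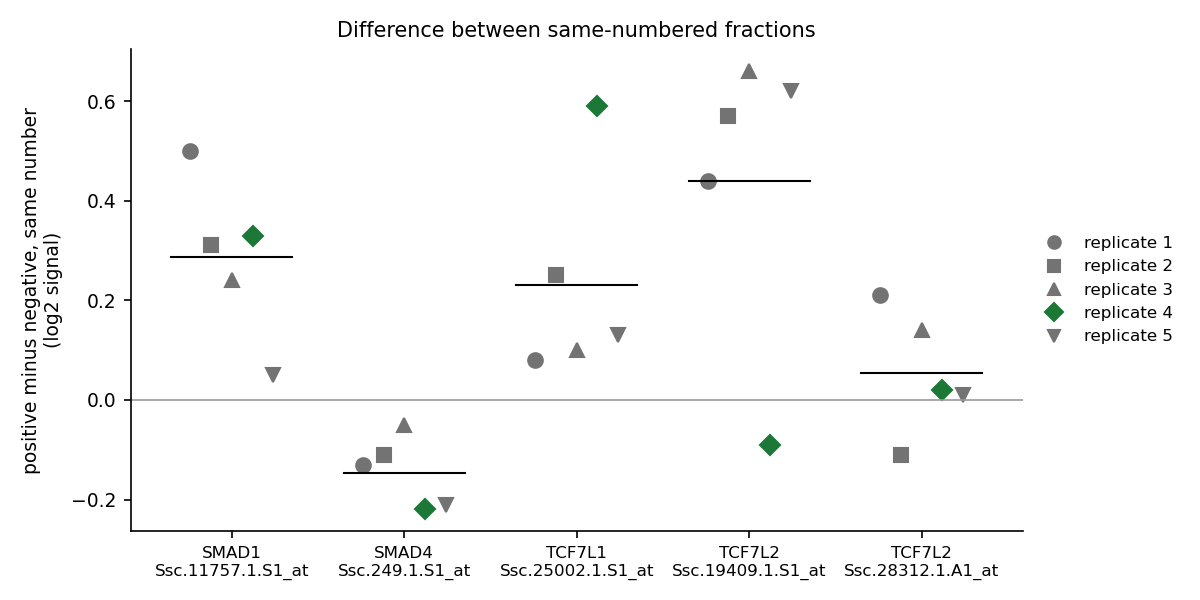
Difference in log2 signal between the SSEA-1 positive and negative arrays of the same replicate number for each member probe set; the horizontal bar is the mean of 5. Replicate 4 (green diamond) gives 0.59 for TCF7L1, the widest gap of that gene, and -0.09 for the brighter TCF7L2 probe set, whose other 4 differences lie between 0.44 and 0.66.

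The arrays also differed in their poly-A controls, bacterial transcripts that are carried through labelling with the RNA. Their level relative to the hybridisation controls was -3.65 to -2.81 in the SSEA1+ arrays and -4.52 to -4.00 in the SSEA1- arrays on the log2 scale. The fractions did not overlap, with a mean difference of 0.84, and a two-sided exact permutation test gave p = 0.00794, the smallest it can reach with 5 arrays each. With this level as a covariate SMAD1 read 0.38 ± 0.15, SMAD4 -0.22 ± 0.13, TCF7L1 0.38 ± 0.15 and the brighter TCF7L2 probe set 0.49 ± 0.28 (SE). With the replicate block beside it these were 0.51 ± 0.26, -0.31 ± 0.23, 0.56 ± 0.28 and -0.23 ± 0.30 (SE), so the direction of TCF7L2 turned. Because the poly-A levels of the fractions do not meet, these are extrapolations. No member passed the threshold in either fit, and with the covariate alone 0.0249% of all probe sets and 0.0296% of genes passed. With the fraction means removed, correlations with the poly-A level were taken over the 10 arrays together, not in each fraction alone. They were -0.29 for SMAD1, 0.35 for SMAD4, -0.43 for TCF7L1 and -0.07 for the brighter TCF7L2 probe set.

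**Figure D3:**
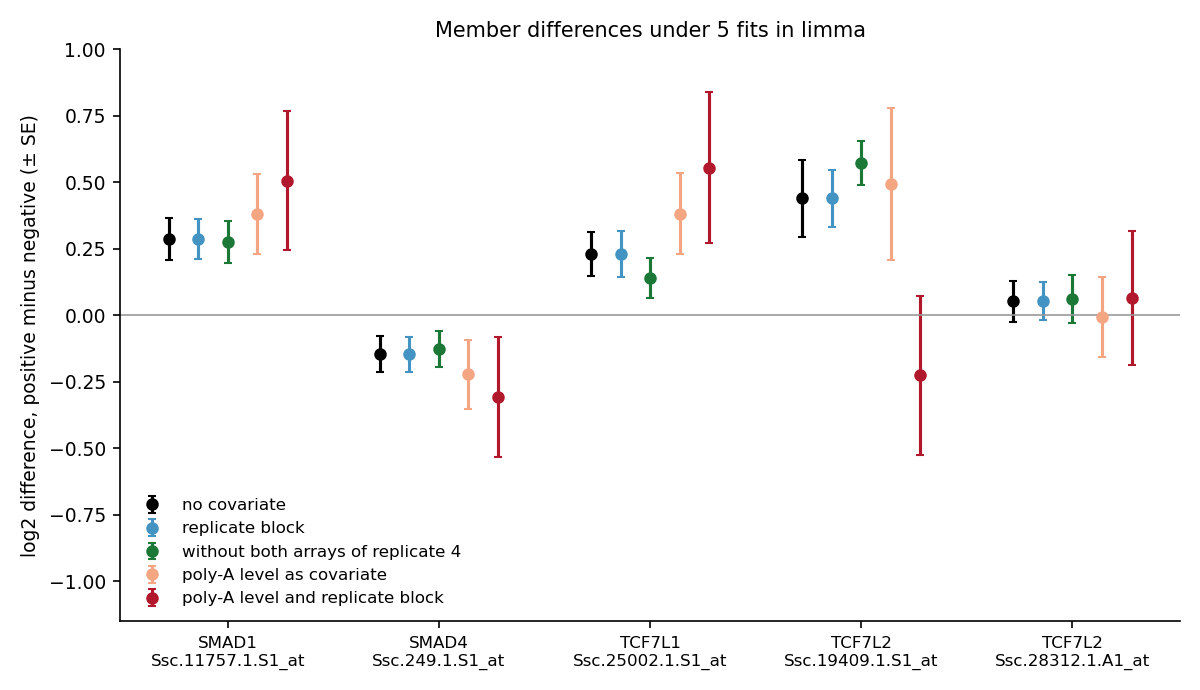
Log2 difference (SSEA-1 positive minus negative, bars ± SE) of each member probe set under 5 limma fits. SMAD1 and TCF7L1 read above 0 and SMAD4 below 0 in all 5. The replicate block alone cannot change a difference, only its SE, and the fits with the poly-A level are extrapolations. The brighter TCF7L2 probe set reads -0.23 with the poly-A level and the replicate block together.

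The fibroblast label was checked against marker genes. All 10 measured fibroblast markers were above background, among them VIM at 11.25 and 11.24 and FN1 at 10.52 and 10.65 in SSEA1+ and SSEA1-. The dimmest of them was COL3A1, at 0.75 and 0.68. The mean level of that list was 6.77 to 7.01 in the SSEA1+ arrays and 6.77 to 7.01 in the SSEA1- arrays. PTPRC and SPI1 of blood cells and CDH5 and TEK of endothelium lay below background on all 10 arrays. Of the same lists PECAM1, at 0.80 and 0.83, and VWF, at 0.54 and 0.48, were above it on all 10 and CD14, at 0.62 and 0.45, on 9. The means of the blood and endothelial lists were 0.24 to 0.36 and 0.25 to 0.41 in SSEA1+ and 0.11 to 0.29 and 0.28 to 0.36 in SSEA1-. EPCAM was near background at 0.44 and 0.20, although KRT8 was clear at 5.42 and 5.47, with the 5 epithelial markers at 1.502 to 2.05 and 1.40 to 2.12. The 4 muscle markers averaged 3.34 to 3.69 and 3.03 to 3.61, carried by DES and ACTC1 with MYOD1 near background, and the 2 neural markers 1.62 to 2.12 and 1.83 to 2.15. In limma 1 of the 10 fibroblast markers passed: COL1A2 rose by 1.19, although its dim second probe set read 0.08. THY1 did not pass on its brightest probe set, at 0.34 and an adjusted p of 0.0564 in limma. A dimmer THY1 probe set rose by 0.89 at an adjusted p of 0.000329, and another read -0.005. Of the 10 markers, 5 read higher and 5 lower, and with the replicate block 2 rose and 1, FAP at -0.50, fell. Of the markers of these other cell types 0 passed, with 3 epithelial ones at an unadjusted p under 0.05. These were EPCAM, CDH1 and CLDN4, dim in both fractions and higher in SSEA1+ by 0.25, 0.18 and 0.24. KRT8 and KRT18 read -0.05 and -0.09.

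Genes of dividing cells were lower in the SSEA1+ fraction in 6 of 6 measured cases, with a median difference of -0.77, and 1 of them, CENPF, passed in limma, a call lost without both arrays of replicate 1, 3 or 5, against 7.39% of all genes. With the replicate block 4 of the 6 fell, TOP2A, CCNB1, CCNB2 and CENPF, against 14.3%. Their mean level was 4.25 to 5.42 in the SSEA1+ arrays and 4.78 to 6.23 in the SSEA1- arrays. The part of this list in the member differences was not tested. In sorted bulk RNA, fewer cells with a transcript and less of it per cell cannot be told apart.

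The other genes of both pathways were read from 13 role lists with 241 genes, of which 80 had a probe set with a single symbol. Each gene was read from its probe set with the highest mean. Of the 28 measured WNT genes 1 passed and it fell, and of the 52 BMP and TGF-beta genes 2 rose and 3 fell, against 7.39% of all 6765 genes (3.21% higher and 4.18% lower). That is 3.57% and 9.62% of the lists, and the median differences were 0.02 and -0.01 against -0.01 over all genes. With the replicate block 1 WNT gene rose and 2 fell, and 3 BMP and TGF-beta genes rose and 5 fell, against 14.3% of all genes (5.65% higher and 8.62% lower).

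WNT ligands, receptors and their antagonists gave no call. WLS, which carries WNT proteins to the cell surface, differed by 0.11 ± 0.07 (SE), and WNT10B, one of the ligands, was below background at -0.05. The 4 secreted antagonists all read higher without passing, among them DKK3 at 0.13 and DKK2 at 0.13, where the second DKK2 probe set gave 0.29. Of 5 receptors the largest differences were FZD2, a Frizzled receptor, at 0.33 ± 0.15 (SE, adjusted p = 0.252 in limma) and its co-receptor LRP6 at 0.25 ± 0.13 (SE). FZD2 passed with the replicate block at an adjusted p of 0.0153. FZD4 was at 0.21, and its dimmer second probe set rose by 0.45 at an adjusted p of 0.0280. LRP6 passed without SSEA1+ replicate 4, at 0.38 and an adjusted p of 0.0342. In these 3 lists, 12 genes in all, limma gave 0 calls and 0 genes at an unadjusted p under 0.05.

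CTNNB1, the beta-catenin that TCF7L1 and TCF7L2 bind, read 8.98 ± 0.06 against 8.76 ± 0.14 (SD, n = 5 each). Its difference of 0.22 ± 0.08 (SE) did not pass in limma, at an adjusted p of 0.118. Its other 4 probe sets gave -0.10, -0.08, 0.02 and 0.10, so the probe sets of this gene did not share a direction. CSNK1A1, the kinase that marks beta-catenin for breakdown, differed by -0.05 ± 0.06 (SE). The kinase CSNK1G2 differed by 0.03 on its brightest probe set, and a dimmer one rose by 0.48 at an adjusted p of 0.0364.

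Among the nuclear partners of the TCF proteins HDAC1 fell. This histone deacetylase, which works with corepressors at TCF-bound genes and at many others, read 5.50 ± 0.10 against 5.93 ± 0.08 (SD, n = 5 each), a difference of -0.43 ± 0.07 (SE, adjusted p = 0.00508 in limma). It was lower in each of the 5 replicate numbers, and it stayed past the threshold in all 15 fits that left out 1 array or both arrays of a number. With the poly-A level as a covariate it read -0.44 ± 0.14, and with the block added -0.26 ± 0.25 (SE), and neither passed. LEF1, the remaining TCF/LEF gene measured besides TCF7L1 and TCF7L2 and itself a WNT target, read 1.38 ± 0.23 against 1.73 ± 0.20 (SD, n = 5 each). LEF1 was thus lower where TCF7L1 and the brighter TCF7L2 probe set were higher, at -0.35 ± 0.12 (SE), but it did not pass at an adjusted p of 0.110 in limma. Without SSEA1+ replicate 2 it read -0.44 and passed, at 0.0430.

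Of 6 measured WNT targets 0 passed in limma; LEF1 was the 1 with an unadjusted p under 0.05. BIRC5, a WNT target that is also a gene of mitosis, read -0.50 ± 0.28 (SE, adjusted p = 0.363), and with the replicate block it passed at an adjusted p of 0.00248. It also passed without SSEA1- replicate 2, at -0.77 and 0.0394, and with replicate 2 left out of both fractions, at -0.55 and 0.0105. MYC, named here after its value was seen, differed by 0.05 ± 0.15 (SE), with a 95% interval of -0.27 to 0.37, and 0.64 ± 0.21 (SE) with the poly-A covariate.

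Of 14 measured genes in the ligand list of the BMP and TGF-beta branch 10 were above background and 0 passed in limma. The 1 at an unadjusted p under 0.05 was BMP1, which is itself no ligand. BMP1, a protease that matures procollagen and frees BMPs from chordin, read -0.26 ± 0.11 and TGFB3 read 0.26 ± 0.17 (SE). A dimmer BMP1 probe set gave 0.03, and a TGFB3 probe set below background gave 0.07. The probe sets of TGFB2 disagreed in size: the brightest on average gave 0.17, and another rose by 0.63 at an adjusted p of 0.0467. The antagonists FST and FSTL3, which hold activins, read 0.27 ± 0.16 and 0.06 ± 0.10 (SE) without passing, and neither had an unadjusted p under 0.05.

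Of the 11 receptors 0 passed in limma, with 2 at an unadjusted p under 0.05. BMPR1A, a type I receptor that phosphorylates SMAD1, was the nearest, with non-overlapping fractions, as for 8.53% of all genes, at 4.56 ± 0.07 against 4.81 ± 0.10 (SD, n = 5 each). It read -0.24 ± 0.07 (SE, adjusted p = 0.0568), opposite in direction to SMAD1, and passed with the replicate block at 0.0327. ACVR1B, an activin receptor, read 0.20 ± 0.09 (SE, adjusted p = 0.225). NEO1, a receptor that also takes part in BMP signalling, passed with the block at -0.36, although its second probe set gave 0.33. SMAD3, which carries the TGF-beta signal, was the only other SMAD measured, at 0.02 ± 0.10 (SE) with a 95% interval of -0.19 to 0.23.

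Partners and regulators of SMAD proteins held 4 of the 6 calls, 1 higher and 3 lower among 12 genes. That is 33.3% of this list against 7.39% of all genes, for lists chosen with earlier results of these data known. ZFYVE16 (endofin), an endosomal protein that anchors SMADs near their receptors, fell by 0.45 ± 0.07 (SE, adjusted p = 0.00415), with -0.26 on a dimmer probe set that did not pass. MAP3K7 (TAK1), the kinase of the branch that runs beside the SMADs, fell by 0.37 ± 0.08 (SE, adjusted p = 0.0143), and its second probe set read -0.31 at 0.0810. WWP2, a ubiquitin ligase that acts on SMADs, fell by 0.56 ± 0.14 (SE, adjusted p = 0.0285), while its second probe set, below background, read 0.10. CTDSPL, a phosphatase of the family that removes phosphate from SMADs, rose by 0.51 ± 0.12 (SE, adjusted p = 0.0227). The adjusted p-values are from limma.

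These 4 calls differed in how they held when arrays were left out. That of ZFYVE16 held in all 15 such fits, and that of MAP3K7 was lost without both arrays of replicate 1, 3 or 5. CTDSPL lost its call without SSEA1+ replicate 1, SSEA1+ replicate 2 or SSEA1- replicate 5, and when number 1, 3 or 5 was dropped from both fractions. WWP2 lost it in 8 of the 15: without SSEA1+ replicate 3 or 5, without SSEA1- replicate 1 or 3, and when number 1, 3, 4 or 5 was dropped from both fractions. Fitted beside the poly-A level they read -0.35 ± 0.14, -0.28 ± 0.15, 0.60 ± 0.23 and -0.70 ± 0.26 (SE) for ZFYVE16, MAP3K7, CTDSPL and WWP2, and none passed. With the replicate block USP9X, an enzyme that removes ubiquitin from SMAD4, also passed, at 0.29 ± 0.09 (SE without the block) and an adjusted p of 0.0358. The second USP9X probe set, near background, read -0.06.

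Targets of BMP signalling gave no call, with 0 of 7 past the threshold in limma and 0 at an unadjusted p under 0.05. ID4 read -0.26 ± 0.13 and DLX5, a homeobox gene of bone and limb, -0.24 ± 0.14 (SE). ID1 and ID3, named after their values were seen, were bright in both fractions: ID1 read 8.17 ± 0.34 against 8.19 ± 0.26 and ID3 read 9.38 ± 0.18 against 9.39 ± 0.11 (SD, n = 5 each). The 95% interval of the difference was -0.36 to 0.33 for ID1 and -0.21 to 0.19 for ID3. With the poly-A covariate ID1 read 0.54 ± 0.25, ID3 0.36 ± 0.14 and MSX1, another BMP target, 0.56 ± 0.16 (SE) against 0.05 without it, so the values near 0 hold for the fit without the covariate. Among 6 TGF-beta targets 1 passed: CDKN1A, an inhibitor of the cell cycle that p53 also induces, rose by 0.68 ± 0.12 (SE, adjusted p = 0.00511 in limma) and held in all 15 leave-out fits. It read 0.84 ± 0.22 (SE) with the poly-A covariate, where it did not pass.

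**Figure D4:**
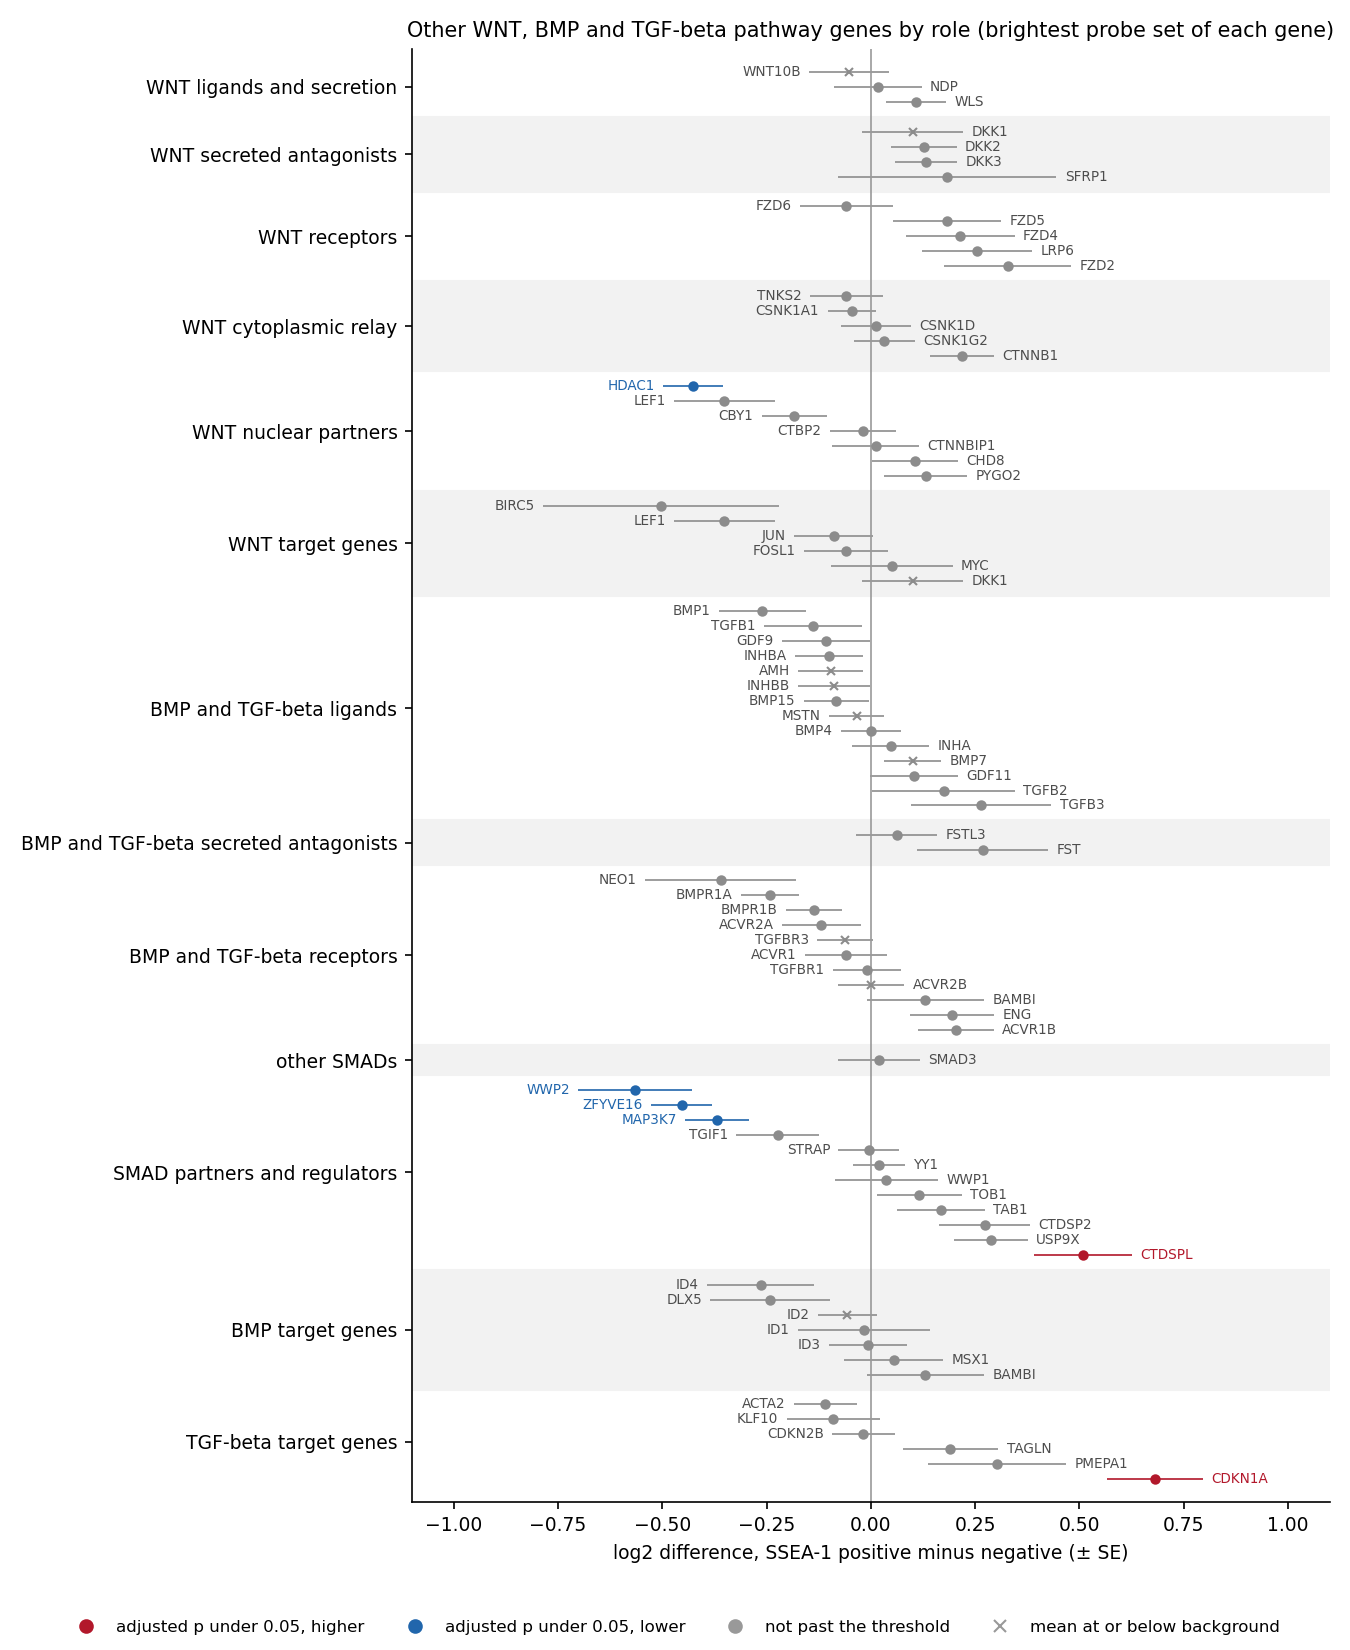
Log2 difference (SSEA-1 positive minus negative, bars ± SE, 5 arrays a fraction) of the 80 other pathway genes measured, grouped by role; genes in 2 lists appear in both. HDAC1, ZFYVE16, MAP3K7 and WWP2 (blue) fell and CTDSPL and CDKN1A (red) rose, while ID1 and ID3 lie near 0 and crosses mark genes whose mean is at or below background.

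For each member the 3 genes with the most similar profile were taken by Pearson correlation over the 10 arrays, out of 5846 genes with a mean above background. These correlations are the highest of many and include the difference between the fractions, so they are given as a description. Nearest to SMAD1 were PAPD5, a poly(A) polymerase, at 0.94, GATA6, known from the formation of endoderm and heart, at 0.94 and RBPJ, the DNA-binding partner of Notch, at 0.94. After the fraction means were removed they were 0.85, 0.82 and 0.83. GATA6 rose by 0.86 ± 0.12 (SE, adjusted p = 0.00141) and PAPD5 by 0.37 ± 0.10 (SE, adjusted p = 0.0467) in limma, and RBPJ read 0.24 without passing.

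Nearest to SMAD4 were GPBP1, a promoter-binding protein, at 0.95, STIM2, a calcium sensor of the ER, at 0.92 and ZCCHC3, a zinc finger protein, at 0.92, with differences of -0.51, -0.24 and -0.22. GPBP1 passed with the replicate block alone, at an adjusted p of 0.0176 against 0.0641 without it. For TCF7L1 they were AKAP13, a protein that anchors a kinase, at 0.93, SLC39A14, a zinc transporter, at 0.92 and AMOTL1, a protein of cell junctions, at 0.91. For the brighter TCF7L2 probe set they were KXD1, a protein of lysosome positioning, at 0.94, MSMB, a secreted protein, at 0.93 and EARS2, a mitochondrial tRNA synthetase, at 0.92. Of the 6 genes nearest to TCF7L1 and TCF7L2, limma called 0, and so did the blocked fit. After the fraction means were removed their correlations were 0.84 to 0.92, values of genes chosen for a high correlation. Spearman correlations of these 6 over the 10 arrays ran from 0.78 for MSMB to 0.94 for KXD1 and EARS2. None of the nearest-gene correlations was computed without replicate 4.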

How the data were processed

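The authors deposited log2 signals, 1 per probe set and array, computed by RMA per the submitters' processing notes, which name no version or background step. Between 4.55% and 8.16% of an array's values were below 0, and 69.3% to 72.5% were above background. They were used without rescaling.

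Probe sets were named by the platform annotation, matched by Entrez identifier to RefSeq names of Sscrofa11.1: of 24123 probe sets 10099 had 1 symbol, 198 several and 13826 none. The background level was set at percentile 95 over 23 controls for absent sequences. All 24123 probe sets, 188 controls included, were fitted in limma 3.58.1 (R 4.3.3; lmFit, eBayes), with Benjamini-Hochberg adjustment and a threshold of 0.05. The procedure was tested on simulated data. The p-values in limma set the difference between the fractions against the spread between these arrays.

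Same-numbered arrays were treated as pairs in the alternative fit, since the series text has each replicate give both fractions and their deviations correlated at 0.214, 0.580, 0.356, 0.119 and 0.247. The pairing is doubtful for replicate 4, whose SSEA1+ and SSEA1- arrays had higher values, 0.314 and 0.304, with arrays of other numbers, and SSEA1- replicate 5 likewise reached 0.314.

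Named were all member probe sets, list genes past the threshold (otherwise up to 2 with the smallest p) and the 3 genes nearest each member. The members and lists were chosen with earlier results of these data known. Alternatives were the replicate block, trend and robust eBayes, repeated quantile normalization, cyclic loess, median centring, a filter on level, the poly-A level as covariate, separation of ranks, a gene's probe sets averaged, and fits without single arrays or pairs. The poly-A level was the mean of 12 poly-A minus 9 hybridisation probe sets.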

Additional observations from a re-analysis of the deposited data

Results flagged for a closer look

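Within a fraction, the gap of the highest or lowest of 5 arrays to its neighbour was divided by the range. Dixon's 95% critical value of 0.71 was passed in 4 of 10 cases. About 1 in 20 would pass among independent normal values, but the 10 cases share the same arrays. The share over all probe sets was not computed, so the count is a description only. SSEA1- replicate 4 was low for SMAD4, at 6.30, and for TCF7L1, at 3.89. SSEA1+ replicate 4 was low for the brighter TCF7L2 probe set, at 0.53. SSEA1+ replicate 3 was high for the dim TCF7L2 probe set, at 0.63. For the first 3 the array carried replicate number 4. The difference of TCF7L2 without both arrays of replicate 4 was 0.57 ± 0.08 against 0.44 ± 0.15 (SE), that of TCF7L1 0.14 ± 0.07 against 0.23 ± 0.08 and that of SMAD4 -0.13 ± 0.07 against -0.15 ± 0.07.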

How the results depend on the processing

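With the replicate block, which treats equal numbers as pairs, 2832 probe sets passed in limma against 1495, 3 WNT genes against 1, 8 BMP and TGF-beta genes against 5 and 2 member probe sets against 1. With the poly-A covariate these counts were 6, 0, 1 (FST, at 1.09) and 0, and with the block beside it 1, 0, 0 and 0; at an unadjusted p under 0.05 there were 2853, 6, 13 and 2 with the covariate and 1964, 1, 5 and 0 with both. Trend and robust eBayes gave 2 WNT genes, CTNNB1 being the second, and 0 member probe sets. In that fit 4 member probe sets, picked for this contrast, had an unadjusted p under 0.05, as had 4691 of all 24123 probe sets. By separation of ranks, which is non-overlap without adjustment, 2 member probe sets were counted, against 1569 of all probe sets or 6.5%. Leaving out arrays gave 384 to 1834 probe sets, 1 to 2 WNT genes, 2 to 5 BMP and TGF-beta genes and 0 to 2 member probe sets. Repeated quantile normalization, cyclic loess, median centring and the filter on level kept each of these 4 counts within 1.5 times, but the balance of probe sets turned from 656 higher and 839 lower to 784 and 688 with quantile normalization and 791 and 709 with cyclic loess. No member difference changed sign when arrays were left out: SMAD4 ran from -0.17 to -0.11 and TCF7L1 from 0.14 to 0.27. The dim TCF7L2 probe sets are limited by their nearness to background.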
